A study of Mus musculus with 12 samples.

Results

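Bone morphogenetic protein (BMP) ligands and their Msx and Id targets were followed in mouse embryos that lack *Carm1* or *Pax3*. The set was fixed by name and holds 5 ligand genes, *Bmp2*, *Bmp4*, *Bmp5*, *Bmp6* and *Bmp7*, and 5 target genes, *Msx1*, *Msx2*, *Id1*, *Id2* and *Id3*. All 10 were present among the 23420 genes of both count tables, and all 10 passed the filter on low counts in both lines. RNA was sequenced from 12 homogenized whole embryos at E12.5 (embryonic day 12.5), with 1 embryo in each library and 3 libraries in each of 4 groups. In the *Carm1* line, embryos homozygous for the knockout allele tm1Mtb (*Carm1* KO/KO) were compared with wild-type embryos on the C57BL/6 background. In the *Pax3* line, embryos homozygous for the Splotch allele Sp2H (*Pax3* Sp2H/Sp2H) were compared with wild-type embryos of a closed colony of mixed background. Both alleles are constitutive, so every tissue of a mutant embryo carried them. The lines differ in background and were compared with their own controls, and no library was shared between them.

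BMP ligands are secreted as dimers and bind pairs of type I and type II serine/threonine kinase receptors. The type I receptor phosphorylates Smad1, Smad5 and Smad9, which enter the nucleus with Smad4 and activate target genes. Id proteins are helix-loop-helix proteins without a DNA-binding region that hold E proteins away from DNA, and Msx proteins are homeodomain repressors. Both families are widely used as readouts of BMP signaling in the dorsal neural tube, limb bud, facial primordia and heart. CARM1 is an arginine methyltransferase and transcriptional coactivator, and PAX3 is a paired-domain transcription factor of the dorsal neural tube, neural crest and muscle precursors.

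The genes that changed in *Pax3* Sp2H/Sp2H embryos, as described later, were *Id3*, *Msx1* and *Bmp5*, and sequence before their RefSeq start sites is shown for that reason. RefSeq promoter sequences (GRCm38.p6, 250 bases before the RefSeq start) were at hand for 7 of the 10 genes, which leaves *Bmp2*, *Bmp7* and *Id1* without one. Motifs were searched by their letters on both strands: GTCTG or its complement CAGAC, the Smad-binding element, GGCGCC, the GC-rich element of BMP-responsive enhancers, and GTCACG or CGTGAC, the core bound by paired domains. The *Bmp5* stretch lies at chr9:75775115-75775363 on the + strand and the *Msx1* stretch at chr5:37824587-37824835 on the − strand, while the *Id3* stretches lie on the + strand at chr4:136143744-136143768 and at chr4:136143645-136143669. The RefSeq start of *Id3* lies downstream of the start that GENCODE gives, so both *Id3* stretches lie inside the first exon of the gene as GENCODE annotates it, in its 5′ UTR. All are written 5′ to 3′, and capitals mark a match to a motif.
Bmp5: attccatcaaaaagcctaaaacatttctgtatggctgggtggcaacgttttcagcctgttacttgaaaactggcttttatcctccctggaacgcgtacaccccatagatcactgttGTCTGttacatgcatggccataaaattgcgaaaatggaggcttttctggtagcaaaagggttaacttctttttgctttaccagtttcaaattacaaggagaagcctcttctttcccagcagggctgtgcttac
Msx1: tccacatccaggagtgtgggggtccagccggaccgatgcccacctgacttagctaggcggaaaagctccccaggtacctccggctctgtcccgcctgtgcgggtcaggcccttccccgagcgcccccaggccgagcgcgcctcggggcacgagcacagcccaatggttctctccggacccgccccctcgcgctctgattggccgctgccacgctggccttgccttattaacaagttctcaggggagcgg
Id3, nearer match: acccttggcgGTCTGttttgaataa
Id3, farther match: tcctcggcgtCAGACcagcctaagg
GTCTG or CAGAC was found in the window before the RefSeq start of *Bmp5*, *Bmp6* and *Id3*, and it is a short motif that 42.2% of 32851 mouse promoters of this length hold. GGCGCC was found before *Id2* (9.59% of promoters) and GTCACG or CGTGAC before *Bmp6* (6.93% of promoters). None of the 3 motifs was in the window before *Bmp4*, *Msx1* or *Msx2*. The windows of *Bmp5*, *Bmp6*, *Msx2*, *Id2* and *Id3* overlap an annotated exon, and these matches describe letters only.

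Libraries held between 17183344 and 23518692 counts, and the 10 genes had between 103 counts (*Bmp6*) and 4187 counts (*Id3*) in a library. As a check of the labels, *Carm1* stood at 71.3, 69.3 and 76.2 CPM (counts scaled to library size, on library sizes scaled by the trimmed mean of M-values, TMM) in *Carm1* KO/KO embryos against 150.7, 145.5 and 136.9 in wild type. *Pax3* stood at 22.4, 22.0 and 18.1 CPM in Sp2H/Sp2H embryos against 30.9, 24.96 and 28.3 in wild type. Neither pair of groups overlapped, although the *Pax3* message fell by only 0.43 on the log2 scale. In the *Carm1* line, *Pax3* was higher in mutants, at 30.4, 29.3 and 27.4 CPM against 20.5, 22.4 and 24.2. Its log2 fold change there was 0.37 (edgeR, adjusted P = 0.0010). In the *Pax3* line the groups overlapped for *Carm1*, with a log2 fold change of -0.07. Y-linked counts were present in 1 of 3 wild-type embryos and 0 of 3 mutants of the *Carm1* line, and in 2 of 3 wild-type embryos and 1 of 3 mutants of the *Pax3* line.

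Levels were first set beside one another per length of exon, as RPKM, counts scaled to library size and to each kilobase of exon, the only scale here on which different genes can be compared. The Id genes were the most abundant and led the order in all 4 groups. In wild-type embryos of the *Carm1* line, *Id3* stood at 92.4 ± 1.76 RPKM (SD, n = 3), *Id1* at 48.5 ± 1.80 and *Id2* at 31.8 ± 2.98. *Bmp4*, the ligand with the highest level, followed at 12.1 ± 0.51 RPKM, then *Msx1* at 9.77 ± 0.86, *Bmp7* at 8.93 ± 1.10 and *Msx2* at 6.00 ± 0.94. *Bmp5* (4.30 ± 0.27), *Bmp2* (3.15 ± 0.10) and *Bmp6* (2.15 ± 0.14 RPKM) closed the order. The 3 libraries of each gene were apart from those of its neighbours in that order, except for *Msx1* and *Bmp7*, which overlapped. The same order of genes was found in *Carm1* KO/KO embryos and in both groups of the *Pax3* line, with no overlap between neighbours. *Id3* reached 136.2 ± 1.41 RPKM in *Pax3* Sp2H/Sp2H embryos against 95.8 ± 9.08 in their wild type, and *Bmp6* was lowest there at 1.67 ± 0.22. *Bmp4* was at 17.8 ± 0.80 RPKM in wild-type embryos of the *Pax3* line, above its 12.1 in those of the *Carm1* line. That gap was not tested, since line, background and breeding colony cannot be told apart.

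**Figure D1:**
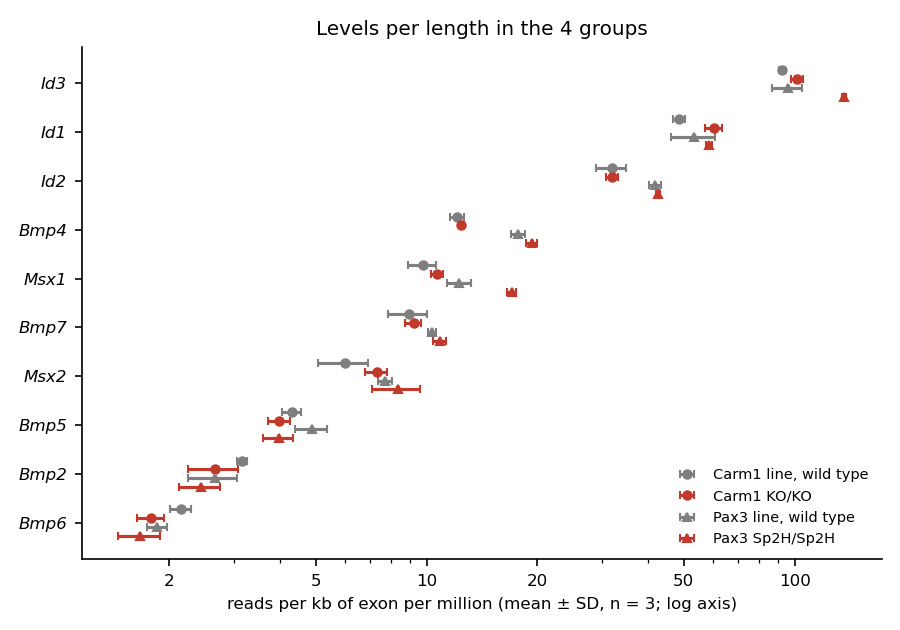
Level of the 10 genes in RPKM (log axis; mean ± SD of 3 libraries) in the 4 groups, ordered by wild type of the *Carm1* line. *Id3*, *Id1* and *Id2* lie above the other 7 genes in each group and *Bmp6* is lowest, at 1.67 to 2.15.

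In a whole embryo, a level is an average over tissues, so fewer cells of a type and less RNA per cell cannot be told apart in any result that follows. Without a stated strand setting, reads of a gene and of a partner on the other strand cannot be separated either. This touches *Bmp6*, which overlaps *Txndc5* and *4930579J19Rik*, *Bmp4*, which overlaps *Gm15217* and *Gm15222*, and *Bmp5*, which overlaps *Gm26903*. No opposite-strand gene of the annotation overlaps *Bmp2*, *Bmp7* or the Msx and Id genes.

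**Figure D2:**
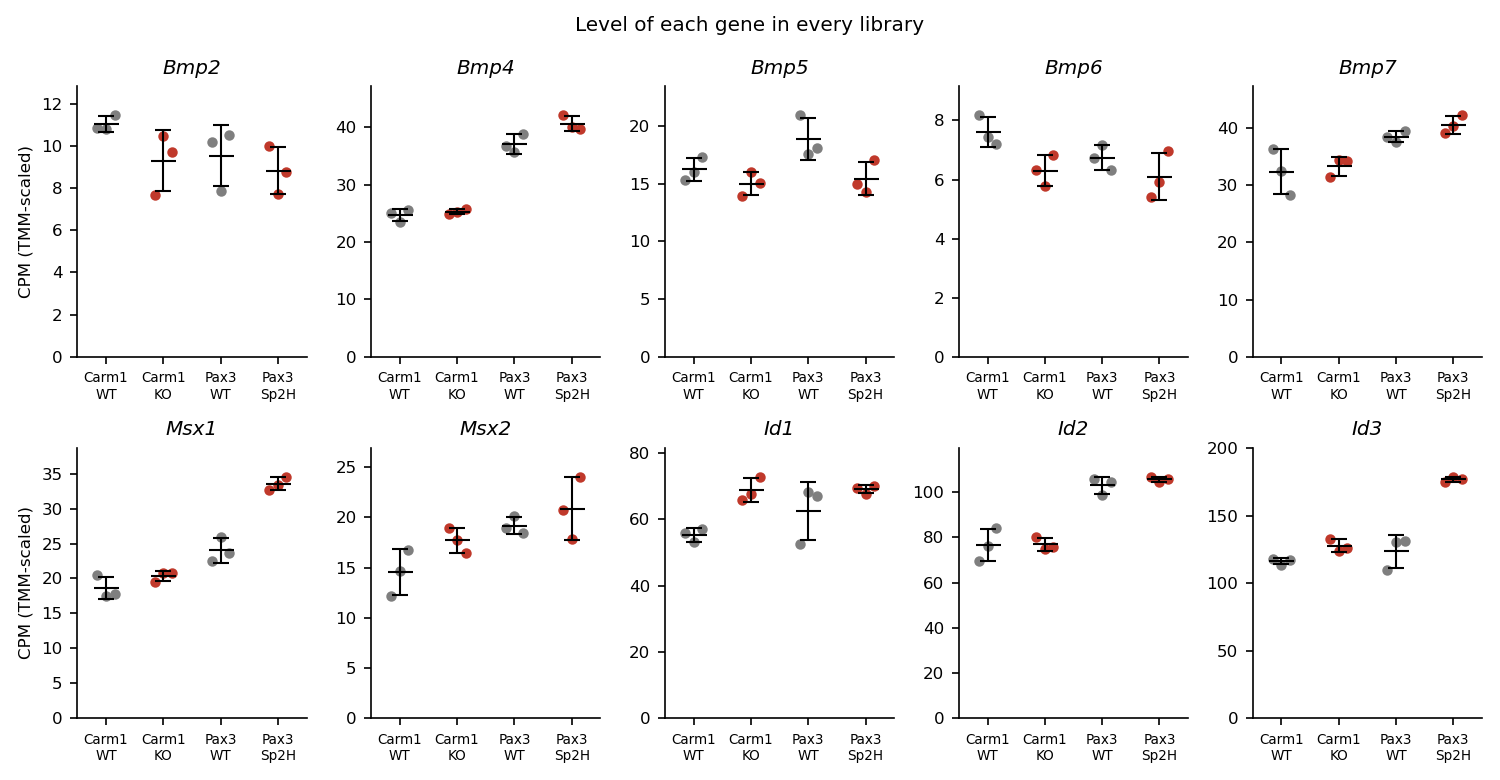
CPM of each gene in every library (points), with the mean and SD of the 3 libraries of a group; axes start at 0, grey is wild type and red is mutant. *Id1* of the *Carm1* line and *Id3* and *Msx1* of the *Pax3* line show mutant libraries above all wild-type libraries, and *Bmp5* of the *Pax3* line shows them below.

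The first comparison asked whether loss of *Carm1* moves the ligands or their targets. *Id1* rose 1.24-fold in *Carm1* KO/KO embryos and *Id3* rose 1.10-fold, while none of the 5 ligands passed the test. All 5 targets had a higher mean in mutants, with a median log2 fold change of 0.13, against -0.12 for the 5 ligands and 0.0014 for all 15811 genes tested. With edgeR's quasi-likelihood test and Benjamini-Hochberg adjustment over all genes, 2 of the 10 genes were called higher and 0 lower. Of all genes, 5.49% were called higher and 7.83% lower. Offsets for transcript length and GC content turned the split of all calls in this line from 41.2% higher to 60.0% higher. These offsets also shift the scale of each library as a whole, so that turn cannot be put down to length and GC content alone. Mutant and wild-type libraries did not overlap for 4 of the 10 genes, against 30.0% of all genes, so this share lies near the background.

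Among the targets, *Id1* (chr2:152736251-152737410, + strand, GRCm38) stood at 65.9, 67.8 and 73.0 CPM in mutants and at 56.0, 53.1 and 57.2 in wild type. Every mutant library lay above every wild-type library. The log2 fold change was 0.31 (SE 0.05, adjusted P = 1.3e-04), and the gene was called in 15 of 15 alternative analyses, at 0.27 to 0.35. *Id3* (chr4:136143497-136145755, + strand) stood at 133.2, 123.7 and 126.5 CPM in mutants and at 118.4, 113.9 and 117.1 in wild type. Its groups did not overlap either, but the change was smaller (0.13, SE 0.05, adjusted P = 0.0476) and was called in only 5 of 15 alternatives. DESeq2 gave an adjusted P of 0.0760 for it. Leaving out mutant library 1, 2 or 3 gave adjusted P = 0.252, 0.0662 and 0.105, and leaving out wild-type library 2 or 3 gave 0.188 and 0.0519. *Id2*, the remaining Id gene of the set, had a mean of 76.8 ± 2.77 CPM (SD, n = 3) in mutants and 76.5 ± 7.21 in wild type, with overlapping groups (0.0032, adjusted P = 0.981).

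*Msx2* stood at 18.9, 17.8 and 16.4 CPM in mutants and at 12.2, 14.7 and 16.7 in wild type, so the groups overlapped by 1 library on each side. Its log2 fold change of 0.28 (SE 0.10) just missed the threshold (adjusted P = 0.0627). It passed without wild-type library 3 (0.39, adjusted P = 0.0090) and with a term for embryos with Y-linked counts (0.39, adjusted P = 0.0090). Without wild-type library 1 it dropped to 0.18 (adjusted P = 0.253), without mutant library 1 to 0.23 (adjusted P = 0.258), and DESeq2 gave an adjusted P of 0.168. Wild-type library 3 is the one library of the *Carm1* line with such counts, so that term and the removal of that library act on the same embryo. *Msx1* had 19.5, 20.8 and 20.8 CPM in mutants against 20.5, 17.5 and 17.8 (0.13, SE 0.09, adjusted P = 0.339), and its groups overlapped.

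Of the ligands, *Bmp2* and *Bmp6* had lower means in mutants without overlap between the groups, and neither passed the test. *Bmp2* stood at 7.68, 10.5 and 9.72 CPM against 10.8, 10.8 and 11.5 in wild type (-0.25, SE 0.12, adjusted P = 0.176). *Bmp6* stood at 6.31, 5.77 and 6.84 CPM against 8.18, 7.44 and 7.22 (-0.27, SE 0.13, adjusted P = 0.200). *Bmp2*, which acts in heart valve and limb development, and *Bmp6* are the least abundant genes of the set and have the largest standard errors. *Bmp4*, which acts in limb bud, dorsal ectoderm and outflow tract, had 24.9 to 25.7 CPM in mutants and 23.5 to 25.6 in wild type (0.04, SE 0.07, adjusted P = 0.815). *Bmp5* (-0.12, adjusted P = 0.472) and *Bmp7* (0.05, adjusted P = 0.745) had overlapping groups.

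Levels of several marker lists moved in the same mutants, where 5.49% of all genes were called higher and 7.83% lower. The 10 roof plate and dorsal neural tube markers summed to 302.8 to 311.0 CPM in *Carm1* KO/KO embryos and to 244.8 to 261.4 in wild type, and 6 of 10 were called higher. For the 10 neural progenitor markers the sums were 1980 to 2104 against 1642 to 1692 CPM, with 9 of 10 called higher. Limb mesenchyme markers summed to 509.3 to 543.1 against 544.7 to 561.2 CPM, with 2 called higher and 1 lower. Lower calls were made for 9 of 10 hepatocyte markers, 9 of 10 erythroid markers, 6 of 9 cartilage markers, 6 of 9 skeletal muscle markers, 5 of 10 heart muscle markers and 5 of 10 neuron markers. The erythroid sum went the other way, at 2677 to 3059 CPM in mutants against 1913 to 2586 in wild type. With the offsets 8 erythroid markers were called lower and 1 higher. Cartilage sums overlapped, and sums of hepatocyte, skeletal muscle, heart muscle and neuron markers were lower in mutants without overlap. Neural crest glia and pigment markers had 2 of 10 called higher. None of the marker genes was at 0 in all libraries, and their part in the *Id1* and *Id3* results was not tested.

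**Figure D3:**
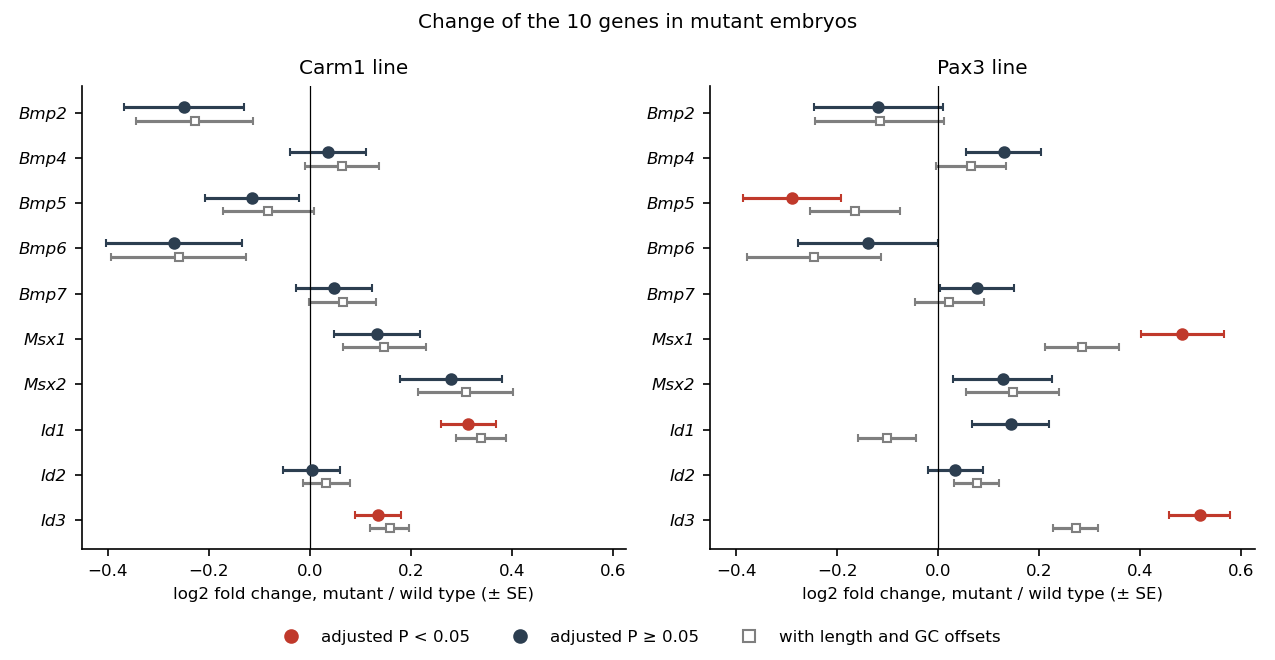
Log2 fold change of mutant against wild type (± SE) for the 10 genes in each line, as tested (filled; red where the adjusted P is under 0.05) and with offsets for length and GC content (open squares). *Id1* and *Id3* are red in the *Carm1* line, *Bmp5*, *Msx1* and *Id3* in the *Pax3* line, where the open squares of *Id3* and *Msx1* lie at 0.27 and 0.28.

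The second comparison asked the same of *Pax3*. *Id3* rose 1.43-fold and *Msx1* rose 1.40-fold in *Pax3* Sp2H/Sp2H embryos, and *Bmp5* fell to 0.818 of its wild-type level. The other 4 ligands and *Msx2*, *Id1* and *Id2* did not pass the test. Thus 2 of the 10 genes were called higher and 1 lower, where 14.0% of all 15724 genes were called higher and 10.5% lower. The median log2 fold change was 0.14 for the targets and -0.12 for the ligands, beside -0.0026 for all genes. Groups did not overlap for 4 of the 10 genes, against 39.6% of all genes, which puts that count at the background.

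*Id3* stood at 175.1, 179.0 and 177.6 CPM in mutants and at 109.8, 130.6 and 131.1 in wild type. The lowest mutant library lay well above the highest wild-type library. The change was 0.52 on the log2 scale (SE 0.06, adjusted P = 5.3e-07) and was called in 15 of 15 alternatives. *Msx1* (chr5:37820485-37824583, − strand) stood at 32.7, 33.4 and 34.6 CPM against 22.4, 26.0 and 23.7, again with no overlap. Its change was 0.48 (SE 0.08, adjusted P = 9.2e-05), called in 15 of 15 alternatives.

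*Bmp5* (chr9:75775364-75900310, + strand), a ligand of skeletal and ear development, stood at 14.98, 14.2 and 17.1 CPM in mutants and at 20.9, 17.6 and 18.1 in wild type. The groups were apart by a small gap between the highest mutant and the lowest wild-type library. The change was -0.29 (SE 0.10, adjusted P = 0.0292), called in 10 of 15 alternatives. It was lost without mutant library 1 (-0.27, adjusted P = 0.112), without mutant library 2 (-0.24, 0.142) and without wild-type library 1 (-0.21, 0.169), and DESeq2 gave an adjusted P of 0.0573.

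*Id1* had 69.5, 67.7 and 70.2 CPM in mutants and 52.6, 68.2 and 67.2 in wild type, where library 1 lay below the other two. Its change of 0.14 (SE 0.08, adjusted P = 0.184) was not called, although a term for embryos with Y-linked counts gave 0.21 (adjusted P = 0.0209). *Id2* differed little between its groups (104.3 to 106.7 against 98.8 to 105.9 CPM, 0.03, adjusted P = 0.698). *Msx2* spread widely in mutants, at 20.7, 17.9 and 24.1 CPM, around the wild-type values of 18.9, 20.1 and 18.4 (0.13, adjusted P = 0.369). *Bmp4* had mutant values of 42.1, 40.0 and 39.6 CPM, all above 36.7, 35.6 and 38.9 in wild type, without a call (0.13, SE 0.07, adjusted P = 0.214). *Bmp2* (-0.12, adjusted P = 0.538), *Bmp6* (-0.14, 0.501) and *Bmp7* (0.08, 0.490) had overlapping groups.

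Changes in this line also moved with gene length and GC content over the whole transcriptome. Across 15606 genes, the Spearman correlation between log2 fold change and exonic length was -0.40 in the *Pax3* line and -0.06 across 15683 genes in the *Carm1* line. With GC content it was 0.44 in the *Pax3* line and 0.049 in the *Carm1* line. In the *Pax3* line, genes of up to 2063 nt had a median change of 0.17 and genes of 4959 nt or more a median of -0.10. *Id3* (1278 nt), *Id1* (1160 nt) and *Msx1* (1935 nt) are among the former and *Bmp5* (3822 nt) is the longest of the 10 genes. *Bmp5* is still shorter than 4959 nt, and its GC content of 40.5% is the lowest of the 10. With offsets for length and GC content in each library, *Id3* stayed higher at 0.27 (adjusted P = 1.4e-04) and *Msx1* at 0.28 (adjusted P = 0.0084). *Bmp5* moved to -0.17 (adjusted P = 0.234), and *Id1* turned to -0.10 (adjusted P = 0.259). In the *Carm1* line the same offsets left *Id1* at 0.34 (adjusted P = 2.7e-07) and *Id3* at 0.16 (adjusted P = 0.0018) and gave a call for *Msx2* (0.31, adjusted P = 0.0131). The offsets also shift the scale of each library, and all 10 genes moved up with them in this line (*Id2* from 0.0032 to 0.032). How far such moves rest on length, GC content or scale was not tested. What the trend with length and GC content comes from was not tested.

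**Figure D4:**
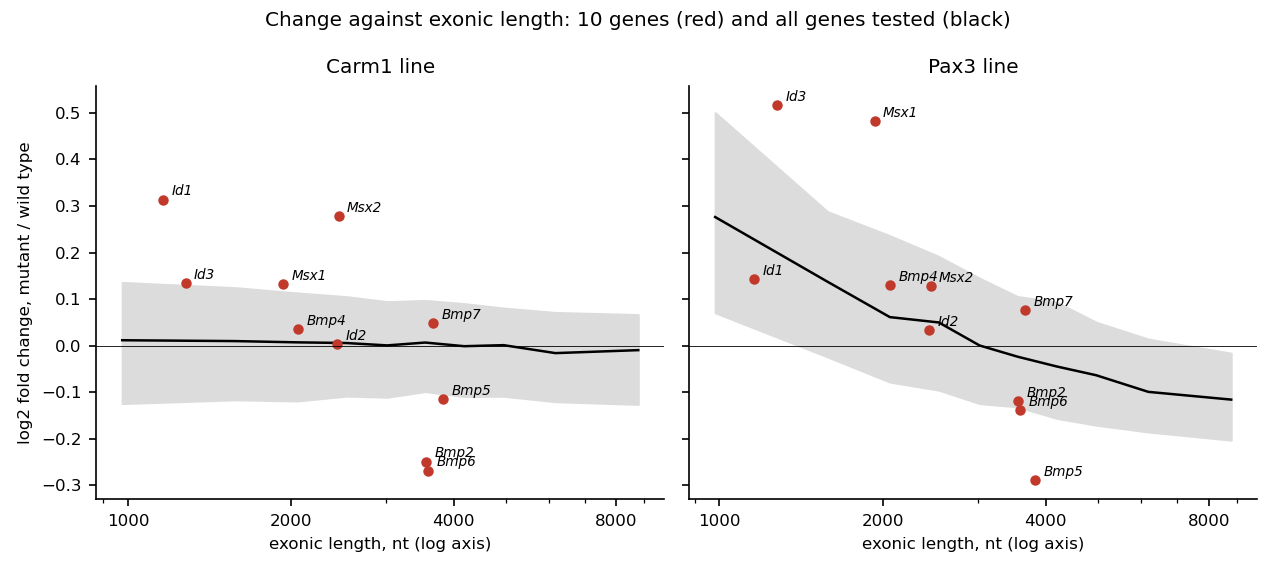
Log2 fold change against exonic length (log axis) for the 10 genes (red) and for all genes tested (black, median of each of 10 length classes; grey, the interquartile range) in both lines. The median of all genes falls from 0.28 in the shortest class to -0.12 in the longest in the *Pax3* line and stays near 0 in the *Carm1* line, and *Id3* and *Msx1* lie above the grey band in the *Pax3* line.

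Marker lists were read in the *Pax3* line too, where 14.0% of all genes were called higher and 10.5% lower. Roof plate and dorsal neural tube markers summed to 302.9 to 312.9 CPM in mutants and 285.9 to 292.1 in wild type, with 1 of 10 called higher. That call was *Gdf7*, which is also read below as a ligand. Neural progenitor markers summed to 1863 to 1988 against 1895 to 1996 CPM, with 5 called higher and 1 lower. Limb mesenchyme markers summed to 608.0 to 634.3 against 605.2 to 625.1 CPM, with 1 called higher. Skeletal muscle markers summed to 178.9 to 201.1 against 331.2 to 378.9 CPM, and 8 of the 9 tested were called lower. Heart muscle markers had 4 called higher and 2 lower, neural crest glia and pigment markers 1 higher and 3 lower, and neuron markers 4 lower. Hepatocyte markers had 1 called higher and 1 lower, erythroid markers 1 lower and cartilage markers 1 higher. With offsets for length and GC content, heart muscle markers had 2 called higher and 2 lower. Neural crest glia and pigment markers then had 0 higher and 2 lower, and neural progenitor markers 3 higher and 1 lower. No limb mesenchyme or erythroid marker was called, and 9 skeletal muscle markers were called lower. The other lists kept their counts, although *Gdf7* was no longer called (adjusted P = 0.201). The part of the marker lists in the *Id3*, *Msx1* and *Bmp5* results was not tested.

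Whether a change differed between the lines was tested as an interaction over all 12 libraries, where 19.1% of 16292 genes passed. For 2 of the 10 genes it did. *Id3* rose by 0.37 less in *Carm1* mutants than in *Pax3* mutants (difference of log2 fold changes -0.37, SE 0.08, adjusted P = 7.2e-04), and *Msx1* had a difference of -0.34 (SE 0.12, adjusted P = 0.0386). The offsets for length and GC content took both below the threshold, to -0.12 (adjusted P = 0.157) for *Id3* and -0.14 (adjusted P = 0.399) for *Msx1*. Under the same offsets *Id1* differed the other way, at 0.43 (adjusted P = 9.7e-05), where the fit without offsets gave 0.18 (adjusted P = 0.205). *Id1* was also called without wild-type library 1 of the *Pax3* line (0.29, adjusted P = 0.0092). The share of higher values among all calls of this comparison moved from 45.3% to 56.0% with the offsets. The *Id3* difference was called in 19 of 20 alternatives and the *Msx1* difference in 10 of 20. Without single libraries the *Msx1* difference lay between -0.27 and -0.40, and it missed the threshold without any 1 mutant library of either line, without wild-type library 1 of the *Carm1* line and without wild-type library 1 or 3 of the *Pax3* line (adjusted P between 0.0516 and 0.128). For *Bmp2*, *Bmp4*, *Bmp5*, *Bmp6*, *Bmp7*, *Msx2* and *Id2* adjusted P lay between 0.380 and 0.930. Their 95% intervals were wide, such as -0.47 to 0.23 for *Bmp2* and -0.13 to 0.46 for *Msx2*.

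The rest of the pathway was read from lists of 70 further genes, of which 66 were tested in each line. In *Carm1* KO/KO embryos 5 were called higher and 3 lower, and in *Pax3* Sp2H/Sp2H embryos 12 higher and 6 lower. These are 12.1% and 27.3% of the genes tested, near the 13.3% and 24.5% of all genes that were called in either direction, and the medians of the list, -0.0232 and -0.0219, lay near those of all genes.

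**Figure D5:**
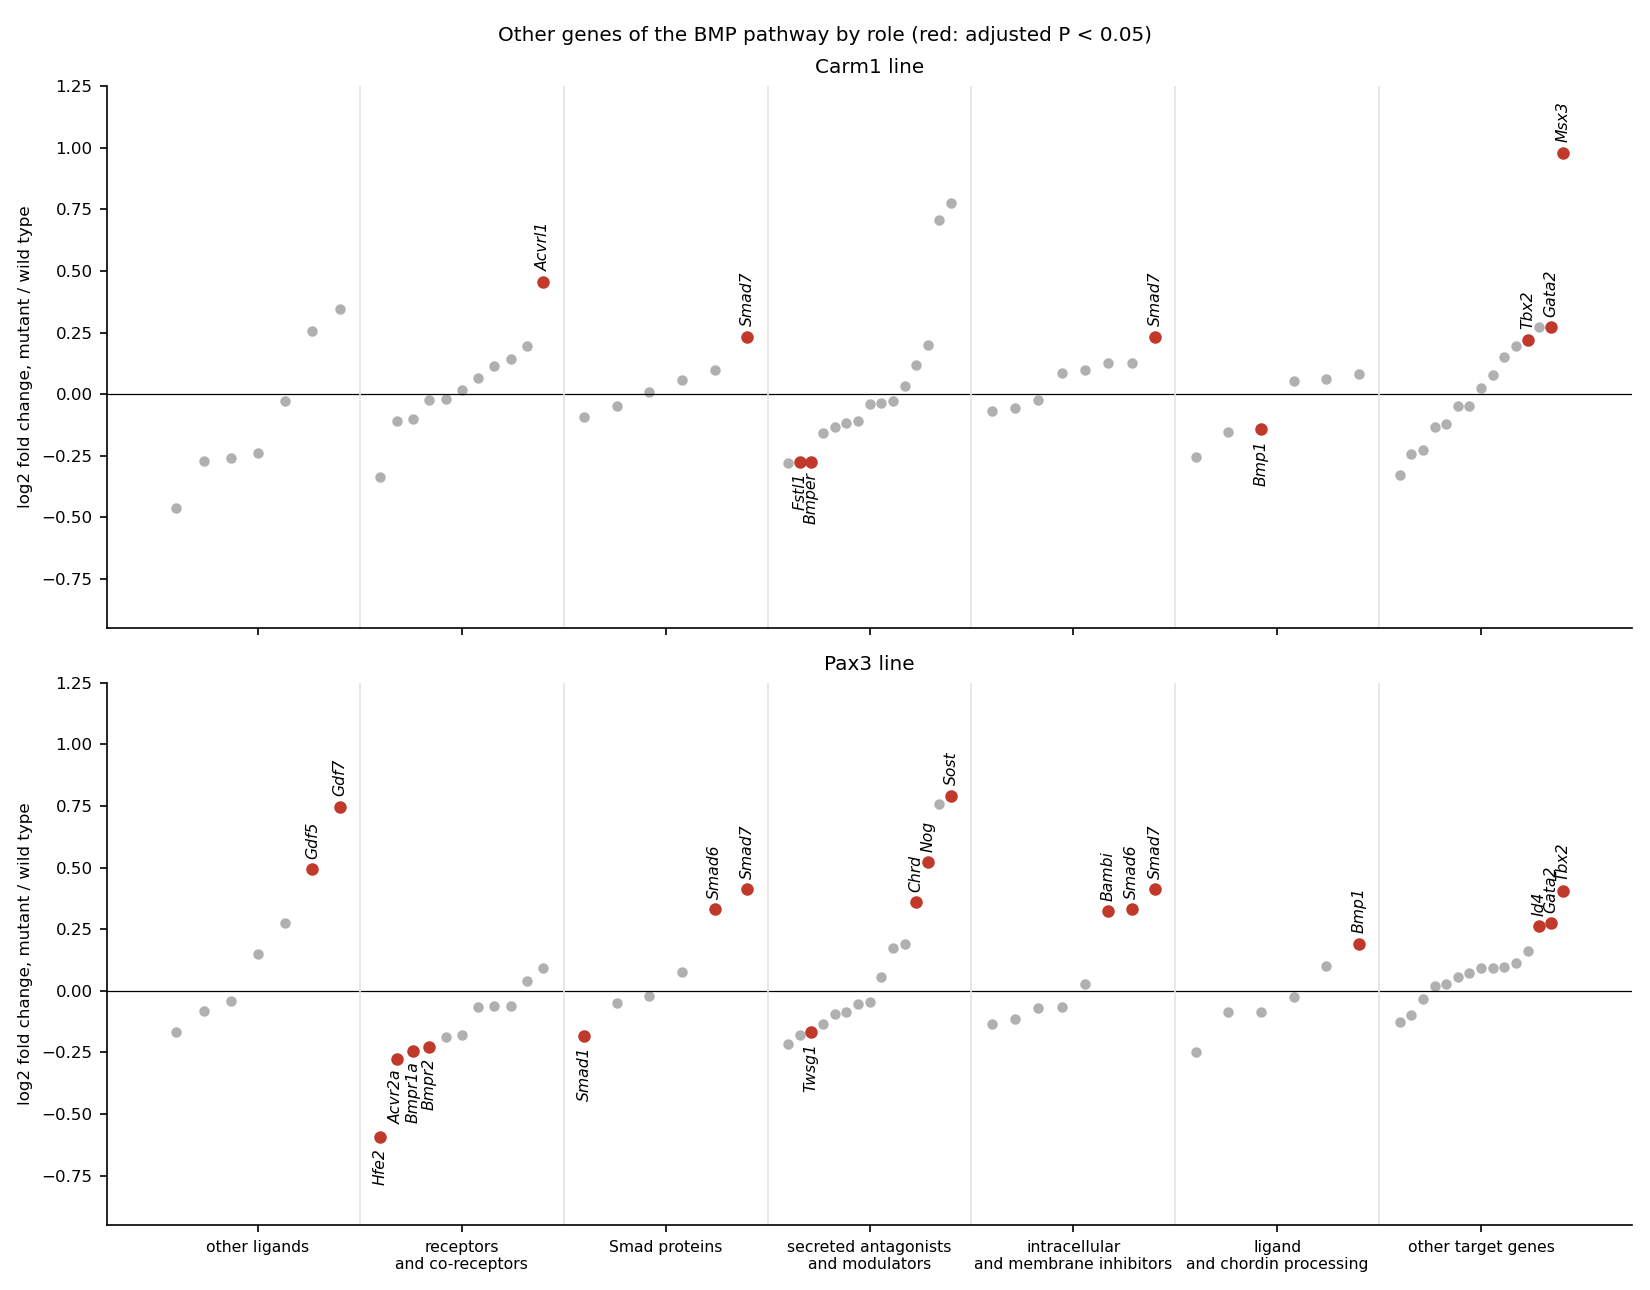
Log2 fold change of mutant against wild type for the tested genes of 7 lists of the BMP pathway in both lines (points, ordered by value in each list; red and named where the adjusted P is under 0.05; *Smad6* and *Smad7* stand in 2 lists). *Msx3* stands apart at 0.98 in the *Carm1* line, and in the *Pax3* line 4 receptors and co-receptors are red below 0.

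Of the other ligands, 2 of 7 tested were called higher in the *Pax3* line (14.0% of all genes) and 0 in the *Carm1* line. *Gdf7*, a roof plate ligand that is also in the roof plate marker list, stood at 4.29, 4.74 and 4.03 CPM in *Pax3* mutants against 2.73, 2.49 and 2.53 (0.75, SE 0.18, adjusted P = 0.0030). *Gdf5*, a ligand of joint formation, stood at 11.04, 8.15 and 10.5 CPM against 6.64, 6.66 and 7.73 (0.49, SE 0.13, adjusted P = 0.0069). Neither pair of groups overlapped. With the offsets they gave 0.36 (adjusted P = 0.201) and 0.37 (adjusted P = 0.0543), and leaving out mutant library 1 gave *Gdf5* an adjusted P of 0.0591.

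Receptors and co-receptors were called lower in 4 of 11 cases in the *Pax3* line, with 0 higher, where 10.5% of all genes were called lower and 14.0% higher. The 4 were the type I receptor *Bmpr1a* (-0.24, SE 0.05, adjusted P = 8.1e-04), the type II receptors *Acvr2a* (-0.28, adjusted P = 0.0038) and *Bmpr2* (-0.23, adjusted P = 0.0147) and *Hfe2*, the hemojuvelin co-receptor (-0.59, adjusted P = 0.0106). With the offsets 2 were called lower, *Hfe2* and the co-receptor *Rgma* (-0.22, adjusted P = 0.0019). *Rgma* was not among the 4, at -0.07 (adjusted P = 0.402) without the offsets. *Bmpr1a* stood at 175.9, 170.5 and 175.6 CPM in mutants and at 206.4, 200.5 and 210.6 in wild type. The 3 receptors are long transcripts of 5686 to 12899 nt, and with the offsets they moved to -0.09, -0.11 and -0.06 with adjusted P of 0.143, 0.192 and 0.557. *Hfe2* (2028 nt), which is known from skeletal muscle and liver, had 2.77 to 4.98 CPM in a library and stayed at -0.72 (adjusted P = 0.0033). Muscle markers were also lower in this line, and their part in the *Hfe2* change was not tested. *Hfe2* missed the threshold without mutant library 1 (adjusted P = 0.0746). *Bmpr2* also missed it without mutant library 2 or 3 or wild-type library 1 (adjusted P = 0.0619, 0.0968 and 0.111). In the *Carm1* line 1 of 11 was called higher and 0 lower, where 5.49% and 7.83% of all genes were. The call was *Acvrl1*, a type I receptor of endothelium, at 20.3, 22.3 and 21.9 CPM in mutants against 16.5, 16.1 and 14.4 (0.46, SE 0.09, adjusted P = 3.6e-04). It was called in 15 of 15 alternatives. With the offsets 3 of the 11 were called higher in this line and 1 lower. The lower call was *Hfe2*, at -0.32 (adjusted P = 0.0463), where the fit without offsets gave -0.34 (adjusted P = 0.0513). The change of *Hfe2* was not shown to differ between the lines (adjusted P = 0.348).

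Inhibitory Smads were higher in *Pax3* mutants. *Smad7*, which blocks type I receptors and is itself induced by signaling, stood at 42.6, 41.6 and 40.1 CPM against 30.0, 33.9 and 29.6 (0.41, SE 0.08, adjusted P = 3.4e-04), and was called in 15 of 15 alternatives. *Smad6*, the other inhibitory Smad, stood at 36.6, 36.1 and 35.7 CPM against 26.2, 30.3 and 29.7 (0.33, SE 0.08, adjusted P = 0.0037), and gave 0.17 (adjusted P = 0.113) with the offsets. *Smad1*, the signal-carrying Smad, was at -0.18 (adjusted P = 0.0446) and was called in 5 of 15 alternatives. It missed the threshold without mutant library 1, 2 or 3 (adjusted P = 0.0662, 0.308 and 0.0705) or wild-type library 2 or 3 (0.111 and 0.0937). *Smad7* was also higher in *Carm1* mutants, at 38.5, 40.8 and 43.5 CPM against 38.2, 34.3 and 32.3 (0.23, SE 0.07, adjusted P = 0.0192), with a narrow gap between the groups. That call was lost without mutant library 2 or 3 (adjusted P = 0.0736 and 0.137) or wild-type library 2 or 3 (0.0881 and 0.0888), with DESeq2 (0.0641) and with the term for Y-linked counts (0.0918). The change of *Smad7* was not shown to differ between the lines (adjusted P = 0.256). *Bambi*, a decoy receptor, was higher in *Pax3* mutants (0.32, adjusted P = 0.0114; 0.43 and 0.0045 with the offsets), and missed the threshold without wild-type library 1 or 3 (adjusted P = 0.0625 and 0.0594). Counted with the membrane inhibitors, 3 of 8 were called higher in the *Pax3* line and 1 of 8 in the *Carm1* line, with 0 lower in either, where 14.0% and 5.49% of all genes were called higher. With the offsets the counts were 2 and 3, so the order of the lines turned.

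Secreted antagonists and modulators gave 3 calls higher and 1 lower of 15 tested in the *Pax3* line, near the 14.0% higher and 10.5% lower of all genes. *Nog*, which encodes Noggin and sequesters BMP ligands, stood at 13.1, 14.2 and 13.7 CPM in mutants against 9.52, 8.34 and 10.5 (0.52, SE 0.11, adjusted P = 9.3e-04). It was called in 15 of 15 alternatives, at 0.32 (adjusted P = 0.0405) with the offsets. *Chrd*, which encodes Chordin, was at 0.36 (adjusted P = 0.0093), and *Sost*, at no more than 2.55 CPM in any library, at 0.79 (adjusted P = 0.0282). *Twsg1* fell by 0.17 on the log2 scale (adjusted P = 0.0159). None of these 3 passed with the offsets, and each missed the threshold without mutant library 1 (adjusted P = 0.0523, 0.106 and 0.0545). *Sost* also missed it without mutant library 2 or wild-type library 1 or 2 (0.135, 0.0817 and 0.0555), and *Twsg1* without mutant library 2 or 3 (0.0554 and 0.0607). In the *Carm1* line 0 were called higher and 2 lower, where 5.49% and 7.83% of all genes were. *Fstl1*, a secreted follistatin-like glycoprotein, stood at 477.3, 507.4 and 481.6 CPM against 585.5, 616.8 and 573.6 (-0.28, SE 0.05, adjusted P = 6.4e-05) and was called in 15 of 15 alternatives. *Bmper* was at -0.27 (adjusted P = 0.0319) and missed the threshold without mutant library 1 or 2 or wild-type library 2 (adjusted P = 0.115, 0.117 and 0.146), with DESeq2 (0.117) and in 1 fit of all 12 libraries (0.0506).

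*Bmp1*, a protease that cleaves Chordin rather than a ligand of this family, was the 1 call of 6 among processing genes in each line. Of all genes, 13.3% were called in the *Carm1* line and 24.5% in the *Pax3* line. *Bmp1* moved in opposite directions in the lines. It was lower in *Carm1* mutants (189.1, 202.5 and 202.0 against 233.6, 215.4 and 206.9 CPM, -0.14, adjusted P = 0.0364) and higher in *Pax3* mutants (206.0, 229.2 and 218.6 against 193.1, 205.6 and 174.3 CPM, 0.19, adjusted P = 0.0176). The difference passed its own test (adjusted P = 0.0039). The lower call was lost without any 1 of the 3 mutant libraries or wild-type library 1 or 2 (adjusted P between 0.0710 and 0.232), with DESeq2 (0.0753) and in 1 fit of all 12 libraries (0.107). The higher call was lost without mutant library 2 or 3 or wild-type library 3 (0.106, 0.0769 and 0.127) and with the offsets (0.239).

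Among 15 other target genes tested, 3 were called higher and 0 lower in each line, where 5.49% of all genes were called higher in the *Carm1* line and 14.0% in the *Pax3* line. With the offsets 6 were called higher in the *Carm1* line and 2 in the *Pax3* line. *Msx3*, the Msx gene of the dorsal neural tube, stood at 18.6, 17.98 and 18.8 CPM in *Carm1* mutants against 9.49, 9.20 and 9.41 in wild type (0.98, SE 0.10, adjusted P = 5.6e-09). Every mutant library lay far above every wild-type library, and the gene was called in 15 of 15 alternatives. In *Pax3* mutants its change was 0.07 (adjusted P = 0.617), and the difference between the lines passed the test (adjusted P = 1.0e-05). Roof plate and dorsal neural tube markers were also higher in *Carm1* mutants (6 of 10 called), and their part in the *Msx3* change was not tested. *Tbx2*, a T-box repressor of limb, heart and face, was higher in both lines, at 0.22 (SE 0.06, adjusted P = 0.0062) in *Carm1* mutants and 0.40 (SE 0.06, adjusted P = 9.6e-06) in *Pax3* mutants. In the *Pax3* line it was called in 15 of 15 alternatives but moved to 0.22 with the offsets, and in the *Carm1* line it missed the threshold without wild-type library 2 (adjusted P = 0.0542). *Id4*, the Id gene outside the set, stood at 103.2, 90.01 and 95.9 CPM in *Pax3* mutants against 79.9, 74.1 and 86.7 (0.26, SE 0.06, adjusted P = 0.0036), and its call held in 15 of 15 alternatives. *Gata2* was at 0.27 (adjusted P = 0.0142) and 0.28 (adjusted P = 0.0135). It missed the threshold in the *Carm1* line without mutant library 1 or 2 or wild-type library 2 (0.115, 0.0732 and 0.0790) and in the *Pax3* line without mutant library 1 (0.0822) and with the offsets (0.164).

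After the mean of each group was subtracted, the 45 pairs of the 10 genes had Pearson r over the 12 libraries between -0.82 (*Bmp7* and *Id2*) and 0.80 (*Id1* and *Id3*). Of 14797 genes searched, the one most alike to *Id1* was *Terf2ip* (r = 0.98), to *Id2* *Mitd1* (0.98) and to *Id3* *Haus8* (0.98). For *Msx1* it was *Xpo6* (0.96) and for *Msx2* *Senp8* (0.95). For the ligands *Bmp2*, *Bmp4*, *Bmp5*, *Bmp6* and *Bmp7* these were *Psmd10* (0.95), *Was* (0.95), *Nrg3* (0.98), *Itpripl2* (0.93) and *D630045J12Rik* (0.94). Each r is the highest of a search over all those genes with 12 libraries, and is a description only. The libraries of a group differ in depth, and the offsets for length and GC content were not used for these r values.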

How the data were processed

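PolyA-selected RNA of 12 whole embryos was sequenced in paired ends. The authors aligned reads to mm10 with STAR and counted those on exons with featureCounts. Their deposited tables hold unnormalized counts, with a row for each gene and a column for each library. Tool versions, the strand setting and the handling of reads with several alignments are not given in the sources used here.

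Groups and replicate numbers came from the labels. Genes passing filterByExpr were tested by the robust quasi-likelihood test of edgeR 4.0.16 in R 4.3.3 after TMM scaling, each line apart, with Benjamini-Hochberg adjustment over all genes and a threshold of 0.05. The difference between the lines was an interaction in 1 fit of 12 libraries. CPM and RPKM were computed from the counts. Exonic lengths, GC content and coordinates came from GENCODE M21 (GRCm38, the build of mm10), where 21777 symbols were found directly and 1277 by a former name. Replicates were separate embryos, and no pair was identical. Alternatives were DESeq2 (version 1.42.0), RLE and upper-quartile factors, other count filters, 1 fit of all libraries, a replicate block, a term for Y-linked counts (at least 100), length and GC offsets (splines with 5 degrees of freedom), and each library left out. The offsets were fitted with a constant for each library, so they also shift its scale.

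The genes and lists were chosen with earlier results of these data known. Named genes are the 10 of the set, *Carm1* and *Pax3*, the called genes of each list (at most 4 in each direction and line, by smallest P) and the most alike gene of each. Hemojuvelin is listed as *Hfe2*.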

Additional observations from a re-analysis of the deposited data

Results flagged for a closer look

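*Id3* was singled out because its change in the *Carm1* line differed from that in the *Pax3* line by the interaction test (edgeR, difference -0.3723, adjusted P = 7.2e-04): mutants exceeded wild type in both lines, by 0.13 and 0.52 on the log2 scale. *Msx1* was singled out for the same reason (difference -0.3414, adjusted P = 0.0386), with changes of 0.13 and 0.48. With offsets for length and GC content the differences were -0.12 (adjusted P = 0.157) and -0.14 (adjusted P = 0.399).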

How the results depend on the processing

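In the *Carm1* line 2 of the 10 genes were called, and 1, *Id1*, with DESeq2, with at least 10 counts in every library, in 1 fit of all 12 libraries and with the replicate block. Leaving out single libraries gave 1 to 2. With no filter on low counts and with length and GC offsets 3 were called, *Msx2* being added. With the term for Y-linked counts and without wild-type library 3 the 2 called were *Id1* and *Msx2*. *Id3* missed the threshold in both (adjusted P = 0.0521 and 0.0519). In the *Pax3* line 3 were called and 2 to 4 in every alternative. For the difference between the lines 2 were called, 1 with length and GC offsets (*Id1*), and 1 to 2 without single libraries. Signs turned for *Bmp7* in the *Carm1* line with the term for Y-linked counts (-0.0378), and with the offsets for *Id1* in the *Pax3* line (-0.10) and for *Bmp4* (0.0012) and *Bmp7* (0.0450) in the difference, all without a call. Without single libraries, ranges crossed 0 for *Bmp7* (-0.0377 to 0.131) and *Id2* (-0.0564 to 0.0743) in the *Carm1* line, and for *Bmp2* (-0.215 to 0.0069), *Bmp7* (-0.105 to 0.0661) and *Id2* (-0.0800 to 0.0515) in the difference. The cause was not tested. RLE and upper-quartile factors turned no sign.

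Over all genes, 2106 were called in the *Carm1* line and 3260 with the offsets, and 1224, 1381 and 1349 without mutant library 1, mutant library 2 and wild-type library 2. In the *Pax3* line 3851 were called, 2482 with the offsets, and 2565 and 2454 without mutant library 1 and 3. Embryos sharing a replicate number did not deviate together in every pair (r from -0.04 to -0.0052 in the *Carm1* line and from -0.07 to 0.20 in the *Pax3* line). So few pairs cannot decide whether the numbers stand for a shared litter or batch, and the main fits used them as sample names. The replicate block gave 1787 calls in the *Carm1* line, without *Bmper* (adjusted P = 0.0520) and *Bmp1* (0.0757), and 4177 in the *Pax3* line.

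With 3 embryos in a group, changes of *Bmp2* and *Bmp6*, the genes with the fewest counts, had standard errors of 0.12 to 0.14. In the *Carm1* line their changes of -0.25 and -0.27 were not called, so a missing call does not show that a change is absent. The smallest detectable difference was not worked out.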
